A study of Arabidopsis thaliana with 4 samples.

Results

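Gibberellin 2-oxidases (GA2ox) remove gibberellin by oxidising it. The 6 Arabidopsis genes described here, GA2ox1, GA2ox2, GA2ox3, GA2ox4, GA2ox6 and GA2ox8, were chosen by their locus codes among 29971 measured loci. Messenger RNA was measured in siliques, the pods that hold the seeds, of the wild-type accession Col-0 grown in long days, with no treatment or transgene named. There were 4 libraries, each of 1 age class. By the stage labels, pods of days 0 to 5 after flower opening made up stage 1 and those of days 6 to 10 made up stage 2. Stage 3 held days 11 to 15, and the oldest class, stage 4, held days 16 to 20. Whole siliques were taken, so pod wall and seeds are mixed in each library, and fewer cells of a type cannot be told apart from less RNA per cell. With no replicates, the values describe these 4 libraries and no p-value is given.

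Gibberellins are hormones that drive cell elongation, fruit growth and germination. The hormone is finished by GA20ox and GA3ox enzymes, bound by GID1 receptors, and acts by having DELLA repressor proteins destroyed. GA2ox enzymes add a hydroxyl group to the hormone or its precursors, which can then no longer bind the receptor. By the notes of the RefSeq annotation, 5 of the 6 act on C19 gibberellins, the class that holds the active hormones. GA2ox8 acts on C20 gibberellins, which are precursors.

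GA2ox2 was the highest of the 6 genes in stage 1 and GA2ox6 in stage 2. As deposited, all 6 were below 5 FPKM in stages 3 and 4, where GA2ox8 was listed at 0 and enters sums and shares as 0. Levels are in FPKM, fragment numbers divided by transcript length and by library size, so that they can be set side by side between genes. Summed over the 6, the level was 101.4 FPKM in stage 1, 34.7 FPKM in stage 2, 6.03 FPKM in stage 3 and 7.0 FPKM in stage 4. With libraries set to equal FPKM sums it was 43.4, 35.3, 6.86 and 14.1 FPKM in stages 1 to 4. GA2ox2 held 94.4% of that sum in stage 1 and 36.4% in stage 2. GA2ox6 held 1.68% and 52.1% of it in the same stages. In stages 3 and 4 GA2ox2 again held more than GA2ox6, with 60.8% in each, while GA2ox6 held 28.0% and 33.7%. These shares do not depend on how the libraries are scaled to each other. The ratio of GA2ox6 to GA2ox2 was 0.0178, 1.43, 0.461 and 0.555 in stages 1 to 4.

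**Figure D1:**
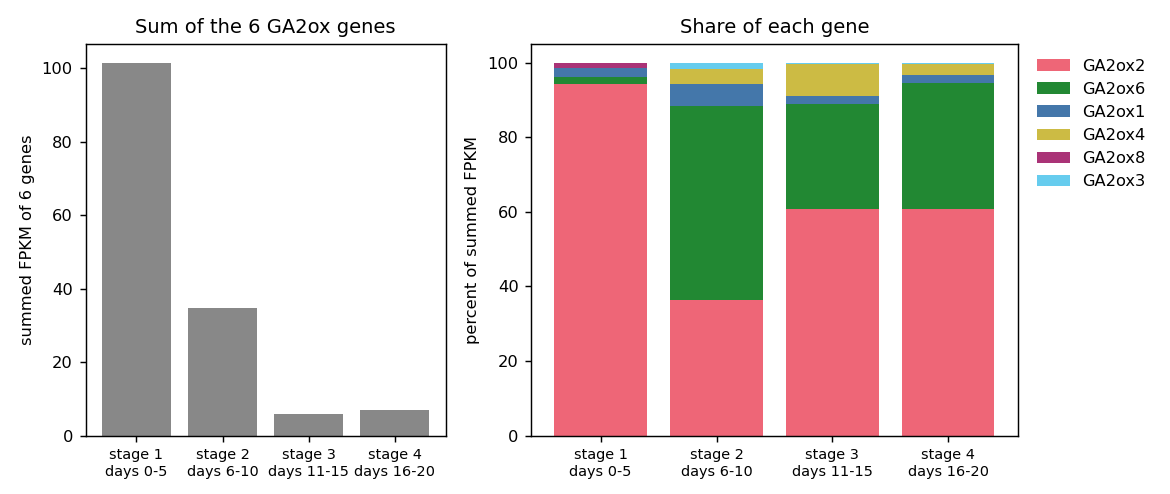
Left, summed FPKM of the 6 GA2ox genes in each stage (1 library per stage); right, the percentage of that sum held by each gene. The sum is 6.03 FPKM in stage 3, against 101.4 FPKM in stage 1, and GA2ox6 exceeds GA2ox2 in stage 2 but in none of the other 3 libraries.

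All 6 genes have a locus of their own in the deposited tables, and no other RefSeq gene overlaps any of them. Each has a transcript of 3 exons. Among the coding sequences of the C19 enzymes, identity was 59.1% to 76.1% of aligned bases, with GA2ox2 and GA2ox3 the closest pair. GA2ox8 shared 55.4% to 58.4% with the other 5. The longest run of identical bases between any 2 of them was 23, against reads of 100 cycles from each end. A run of that length occurs in GA2ox3 and GA2ox4 and another in GA2ox1 and GA2ox6. The first is shown, all in capitals because every base is shared, as an example of how short the stretches are that reads of 2 members have in common.
Shared by GA2ox3 and GA2ox4: TTCTTCAAAGTCATCAACCATGG

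To judge counting error, the worth of 1 fragment was read from the steps between the lowest FPKM values. Under the plain FPKM formula the steps put the libraries at about 67000000, 103000000, 70500000 and 62000000 fragments in stages 1 to 4, and only their ratios hold if the libraries had been scaled to each other. Intervals below are 95% exact Poisson intervals for counting error alone. Between 2 stages, a gene was called higher or lower if its log2(FPKM + 1) changed by 1 or more and its level reached 1 FPKM in at least one of them. A difference on this scale understates the change of genes near or below 1 FPKM.

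GA2ox2 (AT1G30040) lies on the plus strand of chromosome 1, at 10537648 to 10539831 in the deposited TAIR10 coordinates. Its level was 95.7 FPKM in stage 1 (95% interval 93.6 to 98.0), 12.6 FPKM in stage 2 (12 to 13.3), 3.67 FPKM in stage 3 (3.26 to 4.11) and 4.26 FPKM in stage 4 (3.79 to 4.76). Stage 1 lay far above every later stage, and the intervals of stages 3 and 4 overlap. In stage 1 this level exceeded that of 94.5% of all loci. The log2 difference was -2.83 between stage 2 and stage 1, -1.55 between stage 3 and stage 2, and 0.17 between stage 4 and stage 3. Between stage 4 and stage 1 it was -4.20, a level 22.5 times lower in stage 4 (20.0 to 25.3). With libraries set to equal FPKM sums that log2 difference was -2.13.

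GA2ox6 (AT1G02400) lies on the plus strand of chromosome 1, at 486801 to 489580. Its levels were 1.70 FPKM in stage 1 (1.41 to 2.02), 18.1 FPKM in stage 2 (17.3 to 18.9), 1.69 FPKM in stage 3 (1.41 to 2.01) and 2.36 FPKM in stage 4 (2.00 to 2.75). The gene was high in a single library, that of days 6 to 10. The intervals of stages 1 and 3 overlap almost fully, and those of stages 4 and 1 touch. The log2 difference was 2.82 between stage 2 and stage 1 and -2.83 between stage 3 and stage 2. As ratios, stage 2 was 10.6 times stage 1 (8.89 to 12.9) and stage 3 was 0.0934 times stage 2 (0.0776 to 0.112). Stage 4 was 1.39 times stage 1 (1.09 to 1.77).

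**Figure D2:**
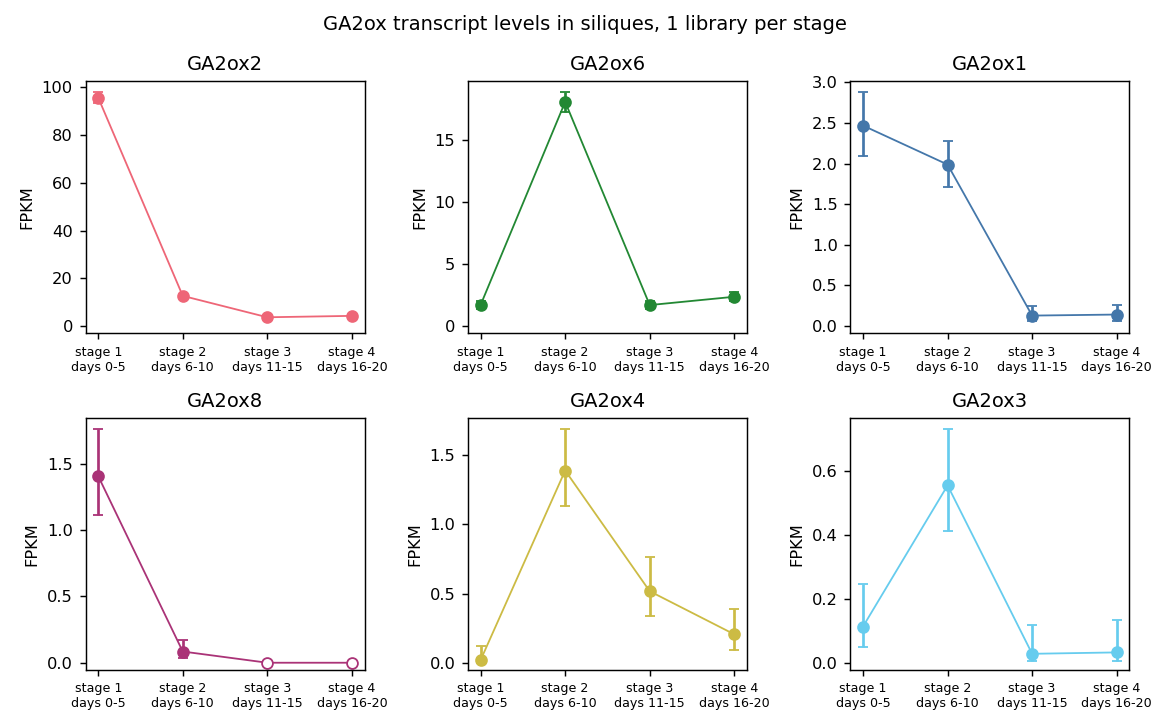
FPKM of each GA2ox gene by stage, 1 library per stage, each panel on its own linear scale; bars are 95% Poisson intervals for counting error only and open circles mark values listed at 0. GA2ox2, GA2ox1 and GA2ox8 are highest in stage 1, and GA2ox6, GA2ox4 and GA2ox3 in stage 2.

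The other 4 genes never passed 2.5 FPKM. GA2ox1 (AT1G78440, chromosome 1, minus strand, 29511599 to 29513051) had 2.47 FPKM in stage 1 and 1.99 FPKM in stage 2, then 0.128 FPKM in stage 3 and 0.141 FPKM in stage 4. The 2 early libraries, whose intervals overlap, lay far above the 2 late ones. As a ratio, stage 2 was 0.805 times stage 1 (0.651 to 0.9996). About 159, 197, 9 and 8 fragments lie behind these values. The log2 difference was -0.21 between stage 2 and stage 1 and -1.40 between stage 3 and stage 2.

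GA2ox8 (AT4G21200, chromosome 4, plus strand, 11302685 to 11306613) is the C20 enzyme. It had 0.0846 FPKM in stage 2, against 1.41 FPKM in stage 1, which are about 7 and 79 fragments, and was listed at 0 in stages 3 and 4. The 2 early libraries lay apart beyond counting error, with a log2 difference of -1.15 between stage 2 and stage 1. An exact 0 in these tables can be a failed estimate, since 37 loci with 100 FPKM or more in some library are listed at 0 in another, so no change is read against stages 3 and 4.

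GA2ox4 (AT1G47990, chromosome 1, plus strand, 17698655 to 17700834) was also highest in stage 2, at a low level. Its levels over stages 1 to 4 were 0.0193, 1.39, 0.517 and 0.206 FPKM, from about 1, 101, 26 and 9 fragments. The interval of stage 2 lay above all others, while that of stage 4 overlaps those of stages 1 and 3. Between stage 2 and stage 1 the log2 difference was 1.23. The ratio was 72.2, with a counting interval of 11.5 to 2620 because stage 1 rests on about 1 fragment. Between stage 3 and stage 2 the log2 difference was -0.66, short of the limit.

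GA2ox3 (AT2G34555, chromosome 2, plus strand, 14556988 to 14558697) was the lowest of the C19 genes in stage 2. Its levels over stages 1 to 4 were 0.113, 0.554, 0.0279 and 0.0323 FPKM, from about 7, 50, 2 and 2 fragments. Stage 2 was the highest beyond counting error, at 4.90 times stage 1 (2.10 to 12.1), and the intervals of the other 3 libraries overlap. The gene stayed below the minimum of 1 FPKM and was therefore not eligible for a call. Its closest relative in sequence among the 6, GA2ox2, was highest a stage earlier.

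In counts, 2 of the 6 genes were higher in stage 2 than in stage 1 (GA2ox6 and GA2ox4) and 2 were lower (GA2ox2 and GA2ox8). Of all loci that could be called, 11.8% were higher and 15.3% lower in that comparison. Between stage 3 and stage 2, 3 genes were lower (GA2ox6, GA2ox2 and GA2ox1) and none higher, against 11.9% lower and 13.1% higher over all loci. Between stage 4 and stage 3 none passed the limit, where 5.52% of loci were higher and 6.42% lower. Between stage 4 and stage 1, GA2ox2 and GA2ox1 were lower and none was higher, against 22.6% lower and 20.7% higher over all loci. The genes with at least 1 FPKM in 1 of the 2 libraries and no value listed at 0 numbered 5, 4, 2 and 3 in these 4 comparisons. Over the 6, 5, 5 and 5 genes above 0 in both libraries, the median log2 difference was 0.13, -1.40, 0.02 and -0.11. Over all loci that could be called it was 0.00, -0.01, -0.01 and 0.01. The 2 sets are unlike, since only the first takes in genes below 1 FPKM, whose differences are understated.

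The balance of directions rests in part on the scale. With libraries set to equal FPKM sums, the median difference of all loci itself moved to 1.05, 0.14, 0.76 and 1.92 in the 4 comparisons, and 52.6% of loci were higher and 4.28% lower in stage 2 than in stage 1. On that scale 2 genes were higher and 1 lower between stage 2 and stage 1, the call of GA2ox8 being lost. Between stage 4 and stage 1, where 76.2% of loci were then higher and 4.86% lower, GA2ox6 was higher at 1.74, which is -0.18 relative to the shifted median. GA2ox2 remained lower, and GA2ox1, at -0.68, lost its call. The calls of GA2ox2 and GA2ox6 between stage 2 and stage 1 kept their direction. On that scale GA2ox2 stood at -1.60 and GA2ox6 at 3.49, and relative to the shifted median at -2.65 and 2.44. With sums made equal over loci of 300 bases or more, 22.4% of loci were higher and 9.45% lower in stage 2 than in stage 1, and the same 4 GA2ox genes were called in the same directions.

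**Figure D3:**
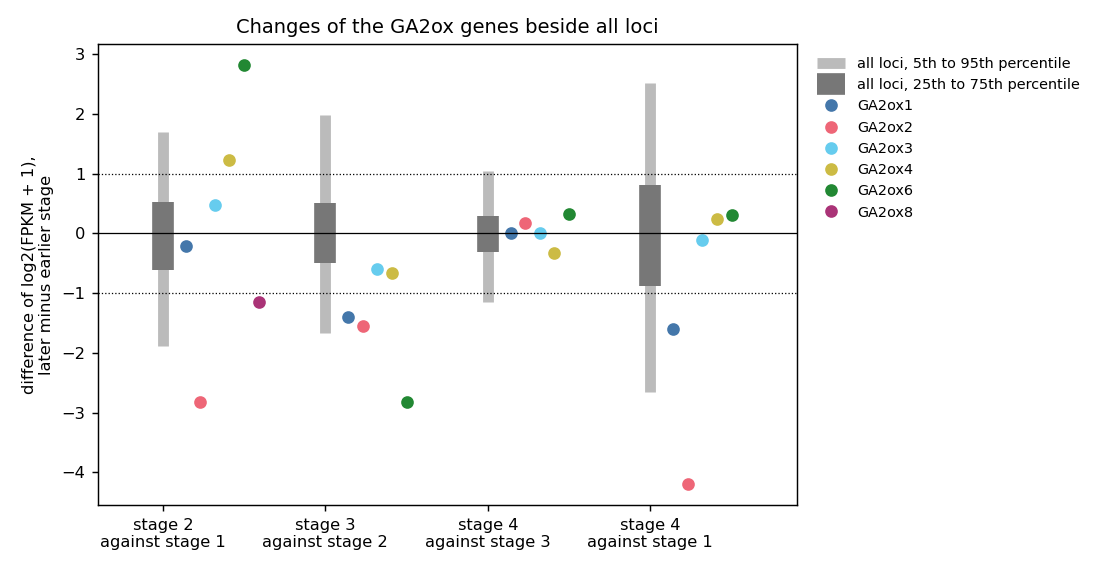
Difference of log2(FPKM + 1), later minus earlier stage, for each GA2ox gene (points) beside the range over all loci with a readable value (bars); dotted lines mark the limit of 1. GA2ox2 at -2.83 and GA2ox6 at 2.82 lie outside the central 90% of loci in stage 2 against stage 1, and all points of stage 4 against stage 3 lie between the dotted lines.

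Both genes called higher in stage 2 hold an RY motif before their start. In the 250 bases before each RefSeq gene start on the TAIR10.1 assembly, searched on both strands, the RY motif CATGCA occurred in GA2ox4 and GA2ox6 and in none of the other 4. RY is the element read by B3-domain seed regulators such as FUS3 and LEC2. FUS3 itself had 0.152, 22.1, 111.6 and 113.7 FPKM in stages 1 to 4. It was higher in stage 3 than in stage 2, where GA2ox6 was lower. The RY motif was present in 8.43% of 27443 protein-coding promoters of this length. The G-box CACGTG, a light- and hormone-response element, occurred in GA2ox4 alone and in 6.49% of promoters. The abscisic acid element ACGTGGC was in none of the 6 and in 3.37% of promoters. In GA2ox4 the G-box overlaps the nearer RY copy, and in GA2ox6 the 2 RY copies overlap as a palindrome. A match is a run of letters and was not tested for binding, and GA2ox3, also highest in stage 2, has none in this window. The windows of these 2 genes are shown for their matches, and that of GA2ox2, the most abundant member of stage 1, as one without a match. Capitals mark the matches.
GA2ox6, chr1:486550-486799, plus strand: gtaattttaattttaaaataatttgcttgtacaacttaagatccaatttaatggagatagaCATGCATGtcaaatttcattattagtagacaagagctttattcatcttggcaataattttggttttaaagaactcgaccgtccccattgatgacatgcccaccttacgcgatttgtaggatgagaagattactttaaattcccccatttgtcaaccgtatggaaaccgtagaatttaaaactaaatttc
GA2ox4, chr1:17698348-17698597, plus strand: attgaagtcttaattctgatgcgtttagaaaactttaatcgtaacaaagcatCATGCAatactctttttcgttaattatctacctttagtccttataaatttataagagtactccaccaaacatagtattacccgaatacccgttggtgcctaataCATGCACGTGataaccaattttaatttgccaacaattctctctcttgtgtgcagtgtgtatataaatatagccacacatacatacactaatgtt
GA2ox2, chr1:10537207-10537456, plus strand: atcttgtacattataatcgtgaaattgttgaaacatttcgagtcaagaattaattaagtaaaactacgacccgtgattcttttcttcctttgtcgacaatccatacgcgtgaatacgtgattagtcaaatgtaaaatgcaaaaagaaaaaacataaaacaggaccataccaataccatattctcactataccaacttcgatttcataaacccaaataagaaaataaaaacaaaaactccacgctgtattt
The RefSeq start of GA2ox6 differs by 1 base from the deposited one, that of GA2ox4 by 57 bases and that of GA2ox2 by 191 bases.

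**Figure D4:**
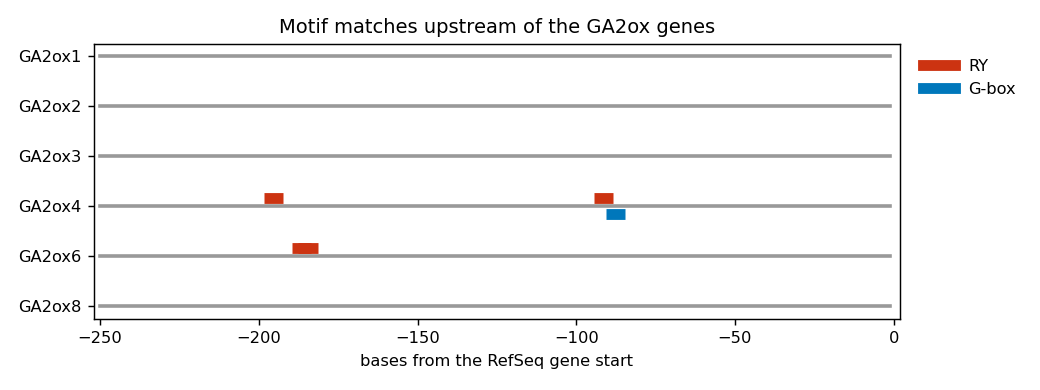
Position of RY and G-box matches in the 250 bases before each GA2ox gene, in bases from the RefSeq gene start. Only GA2ox4 (RY at 198 and 94 bases, G-box at 90 bases before the start) and GA2ox6 (RY at 189 and 187 bases) have a match.

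Markers of several cell types differed between the same libraries. The 2 pollen markers AGP6 and AGP11 summed to 269.8 FPKM in stage 1, 7.56 FPKM in stage 2, 4.21 FPKM in stage 3 and 4.92 FPKM in stage 4. They were high in the library where GA2ox2 and GA2ox8 were high, and neither was at 0 later. Of the stamen and petal genes, PI had 28.7, 3.11, 1.78 and 4.55 FPKM over stages 1 to 4, while AP3 had 33.4, 89.3, 91.8 and 49.4 FPKM. Of the 4 embryo markers 3 were higher in stage 2 than in stage 1, and their sum was 1.11, 109.3, 149.1 and 128.7 FPKM in stages 1 to 4. Of 3 endosperm markers 2 were higher in stage 2, with sums of 5.49, 57.5, 55.2 and 19.1 FPKM; the third, AGL62, shares its locus with another gene. Of 4 seed coat markers 3 were higher in stage 2, and all 4 were lower in stage 3 than in stage 2. Their sum was 127.6, 689.5, 93.6 and 36.4 FPKM, highest in the same library as GA2ox6. One of them, TT3, has a deposited locus of 238589 bases, so its value is uncertain. The 4 markers of pod wall and valve margin, which identify the organ, summed to 166.8, 229.1, 167.0 and 157.8 FPKM, and none passed the limit in any of the 4 comparisons, though with equal FPKM sums all 4 were higher in stage 2 and in stage 4 than in stage 1, as were 52.6% and 76.2% of all loci. With sums equal over loci of 300 bases or more, 1 of them, ALC, was higher in stage 2. The part of these cell types in the GA2ox changes was not tested.

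Regulators of gibberellin inactivation and seed gibberellin levels differed in their course. AGL15, an embryo MADS-domain factor for which GA2ox6 is a known direct target, had 2.48, 14.4, 42.9 and 57.6 FPKM in stages 1 to 4. It was higher in stage 2 than in stage 1, as GA2ox6 was. Between stage 3 and stage 2 AGL15 was higher and GA2ox6 lower. STM and KNAT1 are KNOX homeodomain factors, and the RefSeq notes give GA2ox2 and GA2ox4 as responsive to KNOX activity. STM had 52.1, 7.51, 2.47 and 5.30 FPKM in stages 1 to 4, and KNAT1 had 14.4, 9.04, 4.99 and 9.0 FPKM. STM was lower in stage 2 than in stage 1 and lower again in stage 3, as GA2ox2 was, while KNAT1 passed the limit in none of the 4 comparisons as deposited. With equal FPKM sums KNAT1 was higher in stage 4 than in stages 3 and 1, and with sums equal over loci of 300 bases or more it was lower in stage 3 than in stage 2, as STM and GA2ox2 were. GA2ox4 was lowest in stage 1, where STM was highest. SOM, a zinc finger protein that holds back seed germination, had 1.14, 1.02, 75.6 and 149.9 FPKM in stages 1 to 4. SPT, a fruit and seed bHLH factor, had 10.1, 11.7, 24.1 and 45.7 FPKM. Whether any of these regulators acted on the GA2ox genes here was not tested. A shared course is common, since 15.3% of all loci were lower in stage 2 than in stage 1 and 11.9% lower in stage 3 than in stage 2.

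Gibberellin-inactivating enzymes outside the GA2ox family were lowest in stage 1. All 4 listed, the methyltransferases GAMT1 and GAMT2 and the cytochromes P450 CYP714A1 and CYP714A2, were higher in stage 2 than in stage 1. All 4 were also higher in stage 4 than in stage 1, as deposited and with equal FPKM sums. As deposited, 11.8% and 20.7% of all loci were higher in these comparisons. With equal FPKM sums 52.6% and 76.2% were, so a higher call on that scale says little. With sums equal over loci of 300 bases or more, CYP714A2 missed the limit in stage 4 against stage 1. On that scale GAMT1 and CYP714A1 were lower in stage 3 than in stage 2, as were 20.0% of all loci. GAMT1 had 1.69, 97.2, 62.3 and 50.1 FPKM in stages 1 to 4. GAMT2 had 4.90, 44.0, 62.8 and 45.5 FPKM. The summed level of these 4 was 8.11, 187.5, 153.6 and 112.9 FPKM, below the GA2ox sum in stage 1 and above it in the 3 later libraries. GA2ox7, another C20-type member of the family, was highest in stage 1, with 0.0721 FPKM. It had 0.0246 FPKM in stage 2 and 0.0203 in stage 4, and was listed at 0 in stage 3. AT3G47190 and AT5G58660 had 0.0807, 28.6, 50.5 and 12.2 FPKM and 0.972, 3.43, 15.9 and 20.1 FPKM. They were listed as possible further GA2ox genes, while RefSeq names them as 2-oxoglutarate and iron dependent oxygenases without a gibberellin role. Their sum was 1.05, 32.1, 66.4 and 32.2 FPKM, above that of the 6 GA2ox genes in stages 3 and 4. If these 2 belong to the family, the sum of the 6 is not that of the whole family.

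Genes of synthesis and response are set beside them in the map of gibberellin genes. Of 5 early synthesis genes 4 were higher in stage 2 than in stage 1, with CPS, the first enzyme of the pathway, below 0.8 FPKM in every library. One of the 4, KAO2, at 34.0 FPKM in stage 2, against 13.3 FPKM in stage 1, shares its locus with another gene, so its value is uncertain. Among GA20ox genes, as deposited, GA20ox3 was higher, at 110.9 FPKM in stage 2, against 0.448 FPKM in stage 1, and it reached 278.5 FPKM in stage 3. GA20ox2 had 30.7, 17.5, 6.44 and 15.6 FPKM, lowest in stage 3. Of 4 GA3ox genes, 1 was higher in stage 2, GA3ox3 at 4.29 FPKM, against 0.214 FPKM in stage 1. With equal FPKM sums GA20ox5, GA3ox1 and GA3ox4 were higher as well; GA3ox1, with a deposited locus of 158364 bases, and GA3ox4, in a joint locus, are uncertain. GID1B and GID1C were the receptors lower in stage 2 than in stage 1, with GID1B at 1.86 FPKM, against 9.76 FPKM in stage 1. Among the 5 DELLA genes GAI, RGA and RGL1 were lower in stage 2 than in stage 1. With equal FPKM sums none of these receptor and DELLA calls remained, and GID1A and RGL3 were higher in stage 2. Over loci of 300 bases or more, GID1B and GAI remained lower. With median-ratio factors all of the receptor and DELLA calls made as deposited remained. RGL1 was the highest of the DELLA genes in stage 1, with 122.3, 49.2, 18.2 and 14.3 FPKM over the 4 stages.

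Over all 36 other listed genes, from synthesis to regulators and with both oxygenases, 13 were higher and 6 lower in stage 2 than in stage 1, and 6 were higher and 5 lower in stage 3 than in stage 2. Between stage 4 and stage 3, 1 was higher and 3 lower, and between stage 4 and stage 1, 14 were higher and 9 lower. Over all loci the shares were 11.8% higher and 15.3% lower, 13.1% and 11.9%, 5.52% and 6.42%, and 20.7% and 22.6%. The median log2 differences of the listed genes not at 0 were 0.11, -0.02, -0.21 and -0.04. With equal FPKM sums the same comparisons gave 19 higher and 1 lower, 8 and 5, 9 and 2, and 22 and 0, where of all loci 52.6% were higher and 4.28% lower, 15.7% and 10.1%, 28.4% and 2.46%, and 76.2% and 4.86%. With sums equal over loci of 300 bases or more they gave 14 and 3, 3 and 9, 2 and 2, and 13 and 8. On that scale 22.4% of all loci were higher and 9.45% lower, 9.2% and 20.0%, 5.99% and 5.85%, and 23.0% and 20.6%. The balance between stage 3 and stage 2 thus turned to lower there, as it did over all loci.

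**Figure D5:**
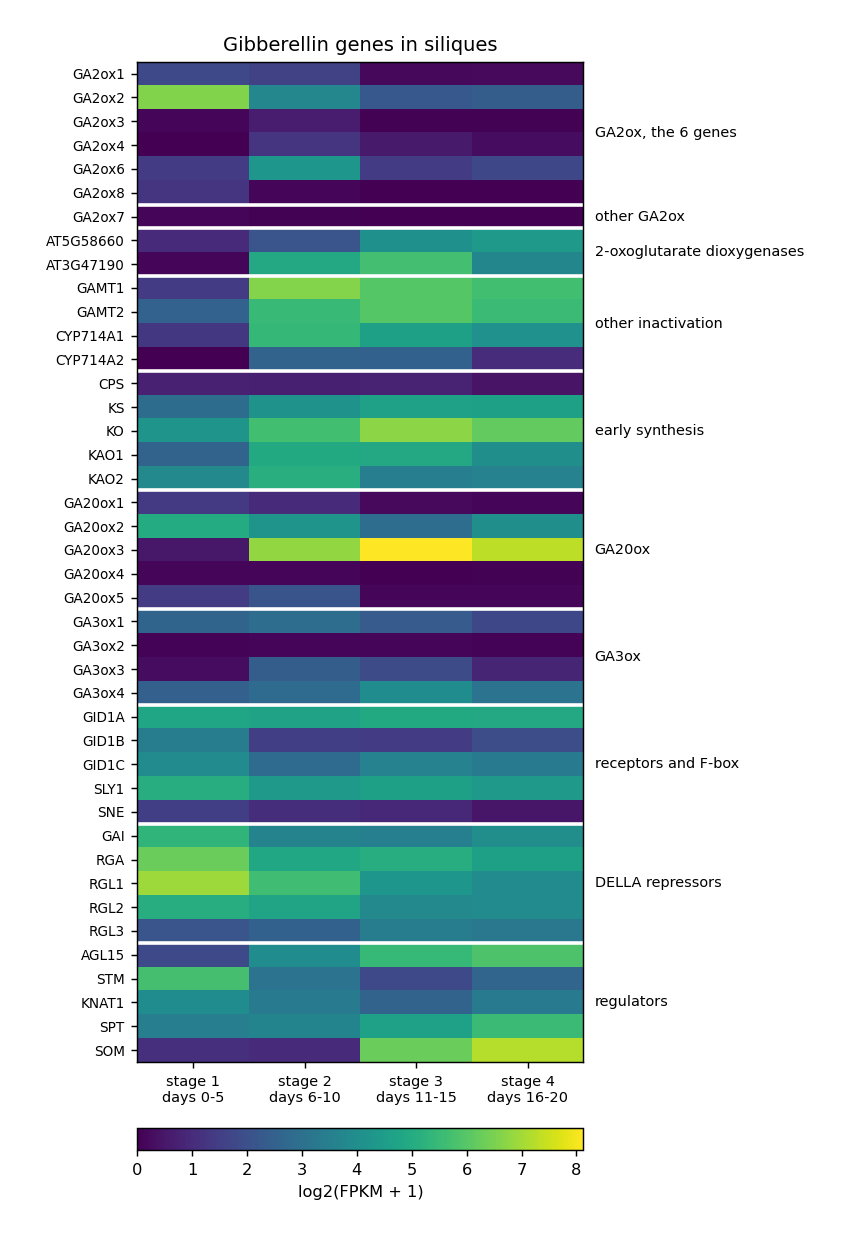
Level of each gibberellin gene, as log2(FPKM + 1), by stage (columns, 1 library each) and role (row blocks). GA2ox2 and the DELLA gene RGL1 are brightest in stage 1, GA2ox6 in stage 2, and GA20ox3 reaches the brightest value of the map, 278.5 FPKM, in stage 3.

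The closest courses to those of the GA2ox genes were sought among 14097 single-gene protein-coding loci, by the distance between log2(FPKM + 1) profiles over the 4 stages after centring each on its mean. For GA2ox6 the nearest was AT1G63030 (ddf2), a DNA-binding protein of the AP2/ERF type, at a distance of 0.35. It had 0.129, 8.87, 0.0332 and 0.299 FPKM in stages 1 to 4, and so was also high in stage 2 alone. AT5G37478, a TPX2 family gene, and AT1G42980, a formin-type gene, followed at 0.38 and 0.42. For GA2ox2 the nearest were AT5G12960 at 0.26, AT2G23900, a pectin lyase-like gene, at 0.27 and AT2G26520 at 0.35. AT5G12960 had 18.8, 1.62, 0.144 and 0.109 FPKM, with its high value in stage 1. For GA2ox1 the nearest were AT1G70280, AT3G25400 and LOL1, at 0.05, 0.07 and 0.11. For GA2ox4 they were AT2G35880, CPUORF47 and CYSC1, at 0.06, 0.10 and 0.12. These last 6 are much more abundant genes with smaller fold changes, since adding 1 to FPKM flattens the profiles of the low GA2ox genes. The nearest genes of GA2ox2 and GA2ox6 peaked instead at lower FPKM than these members. From their highest to their lowest stage they fell by a larger ratio, which the added 1 also hides. A profile of 4 points leaves many genes close to any shape.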

How the data were processed

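Total RNA of Col-0 siliques was made into TruSeq libraries, 1 per stage, and read on a HiSeq instrument in paired-end mode with 100 cycles, per the labels' protocols. The kit does not mark strand. TopHat, Cufflinks, Cuffdiff and the TAIR10 build are named per the submitters' processing notes, and their versions are not given in the sources used here. Values are the authors' FPKM as deposited, 1 per Cufflinks locus. Each library's stage is that of its label, and day limits in the growth protocol that differ from it were not used.

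Being scaled values, FPKM went into no count model. Differences are of log2(FPKM + 1), and loci listed at 0 in either library were left out of calls. Calls were made on all loci with the same rule. It was also run on simulated libraries with counting error only and planted changes of 4-fold or more in loci of at least 5 FPKM. That run cannot tell how the rule does for smaller changes, lower genes or variation between libraries. The members, gene lists and markers were chosen with earlier results of these data known. Named genes are the 6 members, the listed gibberellin genes and markers, and the 3 nearest profiles of each member past the limit between neighbouring stages, with at least 5 FPKM in the highest library. GA2ox8, at 0 in 2 libraries, was left out of that search. One listed gene was left out because RefSeq gives its identifier another name. PIF1 and 3 markers (FIS2, EPR1 and SHP2) were not analysed because no value was found under their identifiers.

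Depth was read from 2470 long single-transcript loci. Values under 3.5 fragments fell within 0.2 of a whole fragment in 74.1% to 81.9% of cases on chromosomes 1, 3 and 5, where the step was chosen, and in 67.1% to 76.0% on chromosomes 2 and 4. Fragment numbers use the 3-exon transcript within the deposited ends, less 260 bases, and are approximate, more so for GA2ox2, GA2ox6 and GA2ox8, which have several transcripts. Intervals cover counting error only. Gene positions are those of the deposited files, while names and promoter sequences with their positions came from RefSeq on TAIR10.1; 28731 single-gene loci were found there by identifier and all but 1 overlapped the gene of that name. The tools were Biopython 1.88, matplotlib 3.10.9, SciPy 1.17.1, pandas 2.3.3, numpy 2.4.6 and Python 3.11.15. Alternatives were pseudocounts of 0.1 and 5, FPKM minimums of none and 5, 3 rescalings and a 4-fold limit.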

Additional observations from a re-analysis of the deposited data

How the results depend on the processing

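The counts of GA2ox genes past the limit were recomputed under 8 alternatives in each of the 4 comparisons. Stage 2 against stage 1 had 4 genes past the limit, and 2 with a pseudocount of 5, 2 with a minimum of 5 FPKM and 2 with a 4-fold limit. Of all loci, 11.8% were higher and 15.3% lower there in the main setting, and 6.07% and 9.52% with that pseudocount. The shares were 11.9% and 15.9% with that minimum, and 3.76% and 4.51% with the 4-fold limit. Stage 3 against stage 2 had 3, and 1 with a 4-fold limit. Of all loci, 13.1% were higher and 11.9% lower there, and 4.92% and 3.43% with a 4-fold limit. Stage 4 against stage 1 had 2, and 1 with a pseudocount of 5, 1 with a minimum of 5 FPKM and 1 with a 4-fold limit. Of all loci, 20.7% were higher and 22.6% lower there in the main setting, and 13.2% and 15.0% with that pseudocount. The shares were 22.4% and 23.0% with that minimum, and 7.54% and 9.12% with the 4-fold limit. By construction, a larger pseudocount or minimum takes out low genes and a 4-fold limit takes out smaller changes. The other settings left each count within 1.5 times of its value. No gene past the limit changed direction under any of the 8. The stage of the highest level moved for GA2ox1 alone, to stage 2, when FPKM sums were made equal, whether over all loci or over those of 300 bases or more, and for none of the 6 with median-ratio factors. Loci under 300 bases held 6.74% of the FPKM sum in stage 4, against 78.5% in stage 1. No paired analysis was possible because each stage has 1 library. Genes at a few fragments, such as GA2ox3 in stages 3 and 4, cannot be ordered at this depth.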
